A study of Homo sapiens with 18 samples.

Results

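Cytosolic ribosomal protein genes were followed in the human neuroblastoma line SH-SY5Y, exposed to the nerve agent sarin at 5 ppm or left untreated. Their products, with the ribosomal RNAs, form the small and the large subunit of the ribosomes that translate nuclear messages. The genes were chosen by symbol: RPS or RPL with a number, RPLP0 to RPLP2 and RPSA, on a probe set annotated to 1 gene. This gave 58 genes with 96 probe sets, of 11963 genes and 19065 such probe sets on the array. RPS6 kinases, pseudogenes and mitochondrial ribosomal proteins were not included.

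The groups were sarin-exposed cells at 3, 24 and 48 h and untreated control cells at the same times, with 3 Affymetrix arrays in each of the 6 groups. SH-SY5Y is 1 clonal line, so the arrays describe no variation between donors. The labels speak of 6 flasks of cells beside 3 arrays per group, and do not tie an array to a flask. The p-values thus rest on array-to-array spread, and part or all of it may be technical. In bulk RNA, fewer cells and less RNA per cell cannot be told apart.

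Ribosomal protein messages are among the most abundant of a dividing cell, and the proteins are made in matched amounts because a ribosome holds a single copy of most of them. Most of these messages begin with a terminal oligopyrimidine (TOP) tract, a C followed by a run of pyrimidines, through which mTOR signalling and the protein LARP1 set their translation. Several ribosomal proteins also act outside the ribosome: RPL5 and RPL11, with 5S ribosomal RNA, bind MDM2 and so spare p53.

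The first bases of 6 member genes are shown, 4 with such a tract beginning exactly at the annotated start and 2 without one beginning there. They were chosen because the results below turn on these genes, and each window runs from 40 bases before to 15 bases from the annotated start in RefSeq (GRCh38.p14). Capitals mark the pyrimidine tract at the start, or the first 5 transcribed bases where no tract of this kind begins there.
RPS27: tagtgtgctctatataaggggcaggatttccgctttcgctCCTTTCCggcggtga
RPS27L: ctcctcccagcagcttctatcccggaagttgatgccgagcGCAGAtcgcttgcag
RPL36: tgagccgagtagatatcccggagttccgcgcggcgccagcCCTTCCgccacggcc
RPL36AL: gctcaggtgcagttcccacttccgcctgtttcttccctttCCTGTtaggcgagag
RPL37A: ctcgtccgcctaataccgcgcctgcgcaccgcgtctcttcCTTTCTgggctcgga
RPL12: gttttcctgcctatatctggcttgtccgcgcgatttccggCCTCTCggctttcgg

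The windows lie at chr1:153990722-153990776 on the plus strand for RPS27, chr15:63157463-63157517 on the minus strand for RPS27L, and chr19:5690255-5690309 on the plus strand for RPL36. Those of RPL36AL, RPL37A and RPL12 lie at chr14:49620612-49620666 on the minus strand, chr2:216498804-216498858 on the plus strand and chr9:127451392-127451446 on the minus strand. RPS27 begins with a tract of 7 pyrimidines, whereas its paralogue RPS27L begins with GCAGA. RPL36 begins with a tract of 6. RPL36AL, a paralogue of RPL36A and not of RPL36, begins with CCTGT, which breaks off at a G.

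A promoter window of 300 bases around the start was listed for 50 of the 58 genes. A C followed by 4 pyrimidines stood exactly at an annotated start in 34 of these, or 68%, against 5.14% of 27305 genes in the table. Within 5 bases of the start it was found in 41, or 82%, against 25.2% of all genes. Of other motifs, searched on both strands and none containing another, TCTCGCGA occurred in 14% of the members and 1.37% of all genes, CCGGAAG in 36% and 12.2%, and ATGGCG in 36% and 12.7%. GGGCGG occurred in 58% and 48.3%, and TATAAA in 8% and 14%. A gene with several listed starts counted as holding a motif if any of its windows did, and a match describes letters only.

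Most member genes were bright on the array. Of the 58, 54 passed the level filter used for testing, 21 of the small and 33 of the large subunit, and 49 of these had a mean log2(signal + 16) of 13 or more. The other 4 genes did not pass: RPL3L, a paralogue known from muscle, RPL10L, one known from testis, the Y-linked RPS4Y1, and RPLP2, an acidic protein of the stalk. The probe sets of RPLP2 annotated to it alone were dim, with signals of 154 to 535 and 11.1 to 201 over the 18 arrays. A further RPLP2 probe set, which carries several symbols and so lies outside the rule, was bright (mean log2 level 14.61) and differed by −2.07 at 48 h of sarin, untested. RPL10L ranged over 83.2 to 422 and RPL3L over 15.7 to 273. RPLP0, RPSA, RPL5, RPL10, RPL13A and RPS27A had no probe set annotated to 1 gene and are not members.

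On all arrays the trimmed mean signal was 800.1 to 800.3, and 0 of 153 pairs of arrays held identical values. The 3 sarin arrays at 48 h stood apart: their log2 values correlated at 0.665 to 0.758 with the other 15 arrays, which correlated at 0.909 to 0.965 with each other. Their GAPDH 3′/5′ signal ratio was 2.15 to 2.3 against 0.703 to 0.955 in control cells at 48 h, their ACTB ratio 3.68 to 4.67 against 1.07 to 1.44, and their spike-in signal 9504 to 12709 against 2189 to 3356. Among markers of noradrenergic neuroblastoma cells, 10 of 12 genes with a probe set exceeded the unspiked bacterial probe sets (their 90th percentile) on all 18 arrays and 1 on none. For substrate-adherent cells this held for 9 of 14 genes. Of blood or immune cell markers 1 of 3, and of astrocyte markers 0 of 3, were above that level on all arrays.

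The level of the members on each array shows the pattern of the series. The median deviation of the 54 members from the mean of the 9 controls, in log2 units, was −0.34, −0.26 and −0.20 on the sarin arrays at 3 h, against −0.11, −0.38 and 0.81 on the controls. At 24 h it was 0.00, −0.14 and −0.10 with sarin and −0.06, −0.20 and −0.26 without. At 48 h it was −0.74, −0.85 and −0.67 with sarin and 0.24, −0.01 and −0.08 without. Control replicate 3 at 3 h was thus the highest of all 18 arrays, and the 3 sarin arrays at 48 h were the lowest.

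**Figure D1:**
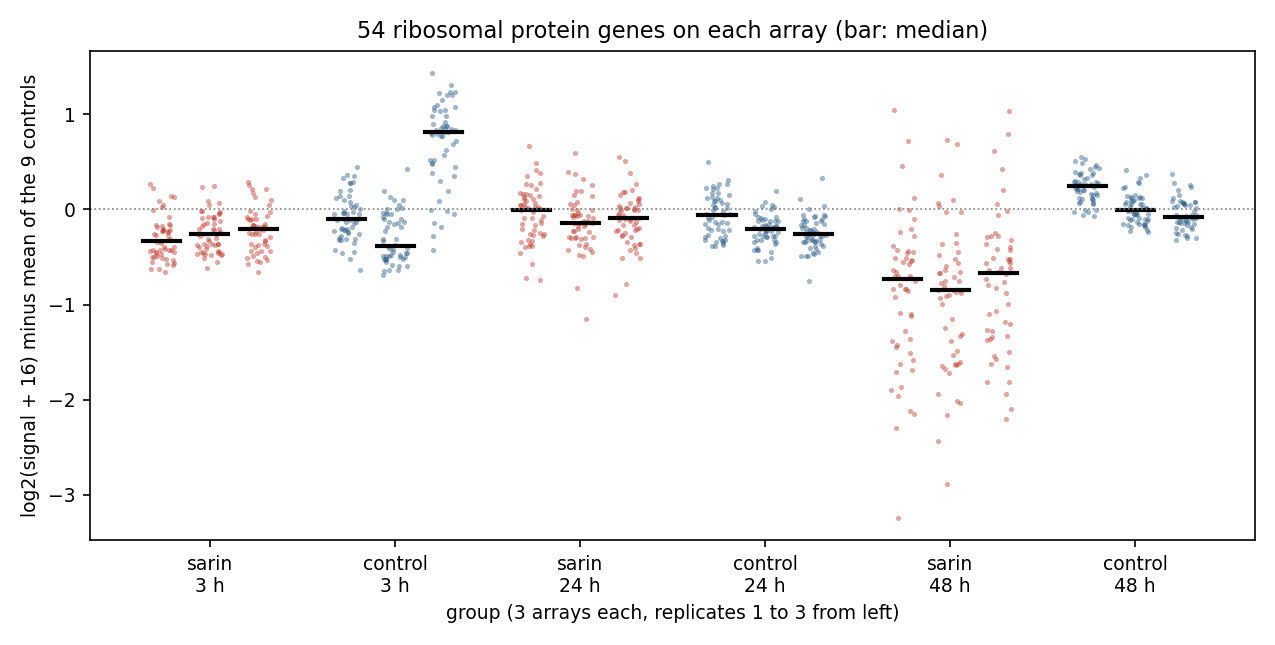
Each point is 1 of 54 ribosomal protein genes on 1 array, as log2(signal + 16) minus its mean over the 9 control arrays, and the bars are medians. The medians of the sarin arrays at 48 h lie between −0.85 and −0.67, and control replicate 3 at 3 h stands at 0.81.

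The high control array was high for bright genes in general. At a mean log2 level of 15 to 17, control replicate 3 at 3 h exceeded the mean of the controls by a median of 1.05 for 15 members and by 1.19 for 12 other genes. At 14 to 15 the medians were 0.80 for 27 members and 0.66 for 23 other genes. Its brightest probe set had a signal of 162749, against 61563 and 47402 on the other two arrays of its group, and member probe sets took 10.1% of its total signal against 6.87% and 6.42%. After quantile normalization its members' median was −0.09.

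Single members spread widely over the 3 h controls. The range over these 3 arrays had a median of 1.20 log2 units over the 54 members, against 0.19 over the 3 sarin arrays of the same time, and replicate 3 was the highest of the controls for 46 of 54. The widest range, 2.02, belonged to RPS18, a protein of the small subunit's head, with signals of 44643, 34438 and 139794. RPL41, the shortest ribosomal protein, followed at 1.87. RPL38, known in mice for its part in translating Hox messages, had 1.73, RPS28 had 1.73 and RPL7 had 1.72.

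**Figure D2:**
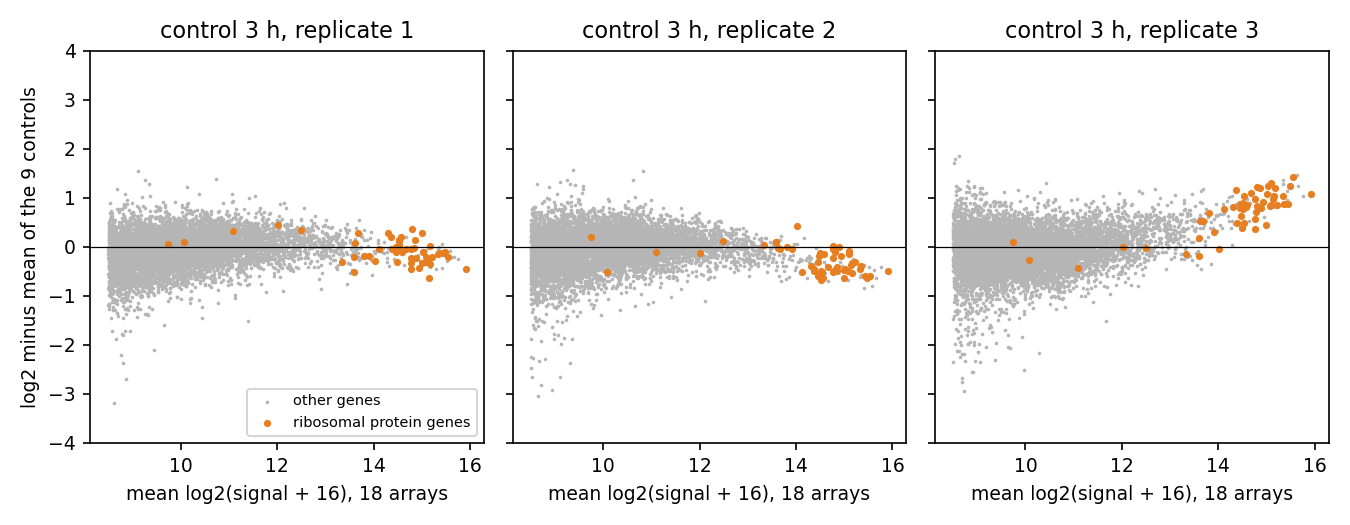
For the 3 control arrays at 3 h, the deviation of each tested gene from the mean of the 9 controls (log2) is plotted against its mean level over 18 arrays, with ribosomal protein genes in orange. On replicate 3 both the members and the other genes rise above 0 with level, to medians of 1.05 and 1.19 at levels of 15 to 17.

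At 3 h of sarin no ribosomal protein gene passed the test, although most stood below the controls. Of 54 members 0 were called higher and 0 lower in limma at a Benjamini-Hochberg adjusted p under 0.05, where 0% of all 7178 genes tested were called in either direction. At an unadjusted p under 0.05 there were 18 members and 747 genes. The members' median difference was −0.34 against −0.01 over all genes, with 51 of 54 below 0. Other bright genes were lower too. At a mean log2 level of 13 to 14 the medians were −0.31 for 7 members and −0.13 for 129 other genes. At 14 to 15 they were −0.33 for 27 members and −0.30 for 23 other genes, and at 15 to 17 −0.56 for 15 and −0.59 for 12. Without control replicate 3 the members' median was −0.08, and with quantile normalization −0.03. Against the controls of the other times 4 of 54 members were called lower, where 1058 of 7178 genes were called in either direction.

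The arrays of the 2 groups did not overlap for 9 members, all lower with sarin (16.7% of members, against 6.95% of all genes), and for 0 members higher (7.13% of all genes). RPS12, a protein of the small subunit, had signals of 25102, 25549 and 24647 with sarin and 31262, 30262 and 60530 in controls. The sarin values lay close together and below all controls, and the log2 difference was −0.62 ± 0.20 (SE, adjusted p = 0.339). Without control replicate 3 it was −0.29. RPS4X, whose gene has a Y-linked copy, had 22718, 24902 and 26204 with sarin against 28468, 31540 and 60277 (−0.62 ± 0.21, adjusted p = 0.339). RPLP1, a stalk protein that helps recruit elongation factors, had 24798, 28467 and 27438 against 29089, 34371 and 74145 (−0.65 ± 0.24, adjusted p = 0.356). In each of these 3 genes control replicate 3 was the highest array. For the members as a whole, the median was −0.61 without control replicate 2.

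A few members had differences near 0 at 3 h: RPS27L −0.05 ± 0.15, RPL26L1 0.02 ± 0.19, RPS21 0.04 ± 0.25 and RPL34 0.06 ± 0.17. RPS27L and RPL26L1 are paralogues of RPS27 and RPL26. None of these 4 was called.

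At 24 h of sarin, RPS27L was the only member called. RPS27L is a paralogue of RPS27 that p53 is known to induce, and it can take the place of RPS27 in the small subunit. Its signal was 9222, 8724 and 8259 with sarin and 4950, 4248 and 5345 in control cells of the same time. The sarin arrays did not overlap the controls, and each was also above the highest of the other 15 arrays, a control at 3 h with 7386. The signal averaged 8735 ± 481 with sarin and 4848 ± 556 in controls (SD, n = 3 each), a fold of 1.81 and a log2 difference of 0.85 ± 0.15 (SE, limma adjusted p = 0.00162).

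The controls at 24 h were the lowest controls for RPS27L. Set against the controls at 3 and 48 h, the sarin arrays at 24 h were higher by 0.46 ± 0.13 in log2 units (adjusted p = 0.0224). Scaled to the spike-ins the difference was 0.88, with an adjusted p of 0.181, and it passed the threshold in the other 19 of 20 alternatives. Its paralogue RPS27 had 34565, 31430 and 33154 with sarin at 24 h, against 41280, 32825 and 33592 in controls. These overlapped, and the log2 difference was −0.11 ± 0.24 (limma adjusted p = 0.802).

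RPS27L was higher with sarin at 24 h and not at 3 h, and this change of effect passed the test by a small margin. The difference of the differences was 0.90 ± 0.21 log2 units (limma adjusted p = 0.0444), the only call among 54 members, where 0.39% of all genes were called in this direction and 0.446% in the other. Leaving out any single array gave an adjusted p of 0.0313 to 0.139, and the call was lost in 10 of these 12 fits, all but those without control replicate 2 or 3 at 3 h. Of all 25 alternatives 9 kept it. The members' median for this difference was 0.43, with 0.14 without control replicate 3 and 0.71 without control replicate 2 at 3 h.

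Of the 54 members at 24 h, 1 was called higher (1.85%, against 4.11% of all genes) and 0 lower (against 4.56%). Arrays did not overlap for 10 members higher with sarin (18.5%, against 17.2% of all genes) and 8 lower (14.8%, against 23.2%). These shares are near or below those of all genes. The members' median was 0.11, against −0.07 over all genes. It was −0.18 against the controls of the other times, against 0.01 over all genes, and 0.40 with array medians made equal, against 0.22 over all genes. It was 0.07 without sarin replicate 1 and 0.06 without control replicate 3. At a mean log2 level of 13 to 14 the medians were −0.07 for 7 members and 0.16 for 129 other genes. At 14 to 15 they were 0.20 for 27 members and 0.05 for 23 other genes, and at 15 to 17 −0.06 for 15 and −0.07 for 12.

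RPL39L, a paralogue of the exit tunnel protein RPL39 that is best known from testis, came next. It had signals of 726, 534 and 641 with sarin against 928, 1063 and 1515 in controls, with no overlap. The log2 difference was −0.85 ± 0.32 (adjusted p = 0.0976), and −0.85 with an adjusted p of 0.00551 when the sarin arrays at 48 h were left out (SE 0.18). RPL30, a large subunit protein, had 24648, 23339 and 24036 with sarin against 31546, 35799 and 35031 (−0.51 ± 0.20, adjusted p = 0.114). Against the controls of 3 and 48 h its difference was −0.92 (adjusted p = 0.00154).

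RPL12, at the base of the stalk, had 40704, 33254 and 33324 with sarin and 27502, 20346 and 21257 in controls (0.64 ± 0.30, adjusted p = 0.178). RPL36AL, the autosomal paralogue of RPL36A, had 5776, 6931 and 5448 against 4185, 3994 and 4863 (0.47 ± 0.21, adjusted p = 0.156). Both were higher on every sarin array, and neither was called. RPL6 (−0.29), RPS12 (−0.28), RPS14 (−0.26) and RPLP1 (−0.30) were lower without overlap, while RPS21 (0.46) and RPL7 (0.49) were higher without overlap, all with adjusted p of 0.256 or more.

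Most of the always listed members stood near 0 at 24 h. RPS6, the substrate of S6 kinases, had −0.14 ± 0.26, RPS3 of the mRNA entry channel 0.18 ± 0.28, RPS19, the gene most often mutated in Diamond-Blackfan anaemia, −0.13 ± 0.26 and RPL11 −0.07 ± 0.19. RPL3, near the peptidyl transferase centre, had 0.01 ± 0.18 and RPL22, a large subunit protein that also binds RNA outside the ribosome, 0.20 ± 0.16. The median member had a standard error of 0.22, from a spread pooled over all 6 groups. In a fit of the 24 h groups alone 7 of 54 members were called, 5 higher and 2 lower. That fit called 1574 of 7178 genes in either direction.

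Over all 96 member probe sets, each tested without the level filter, 3 were called higher at 24 h (3.12%, against 1.7% of 19065 probe sets) and 0 lower (against 1.89%). They were the probe set of RPS27L, 1 of 5 of RPL22 and the dimmer of 2 of RPS21. The RPL22 probe set differed by 0.48 ± 0.13 (adjusted p = 0.0441), and the other 4 by −0.09 to 0.59. The dimmer RPS21 probe set read 1568, 1563 and 1573 with sarin and 745, 1061 and 639 in controls.

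Genes that build or feed ribosomes were counted for comparison at 24 h, when 4.11% of all genes were called higher and 4.56% lower. Of 45 mitochondrial ribosomal protein genes 6 were called higher and 0 lower, and of 44 genes of ribosome biogenesis and RNA polymerase I 7 higher and 0 lower. Of 30 initiation and elongation factors 4 were higher and 0 lower, and of 16 translation factors with TOP messages 0 and 0. Of 23 genes that control ribosomal protein synthesis 2 were higher and 0 lower. The medians of these lists were 0.11, 0.32, 0.12, 0.07 and 0.14.

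**Figure D3:**
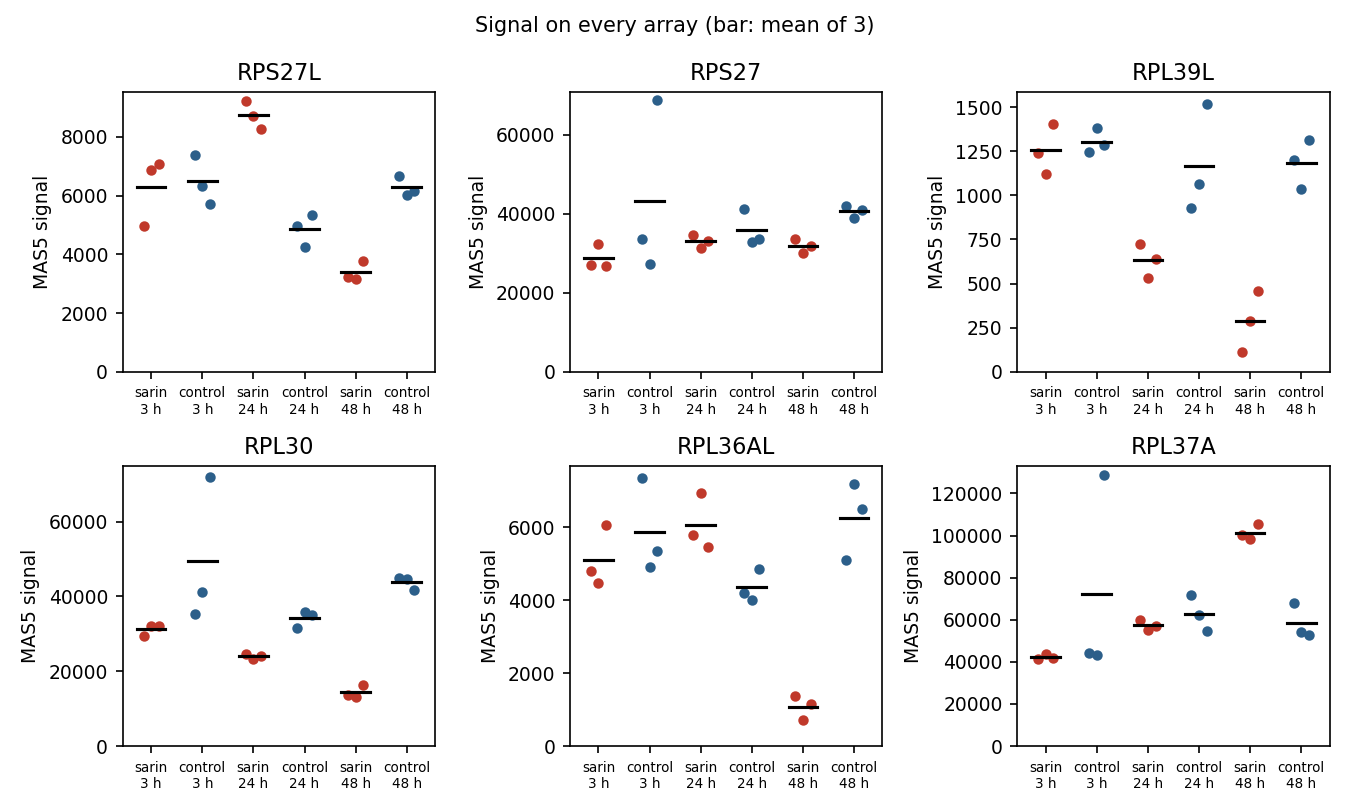
Deposited signal on every array for 6 members, with sarin groups in red, controls in blue and a bar at the mean of 3. RPS27L is highest on the 3 sarin arrays at 24 h (8259 to 9222), RPL36AL lowest on those at 48 h (711 to 1370), and RPL37A above the controls at 48 h (98177 to 105603 against 52998 to 67917).

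At 48 h of sarin most ribosomal protein genes had lower signal. Of the 54 members 37 were called lower (68.5%, against 37.8% of all genes) and 2 higher (3.7%, against 32.9%). Arrays did not overlap for 46 members lower (85.2%, against 36.6% of all genes) and 3 higher (5.56%, against 34.1%). The members' median was −0.85 log2 units, with a range of −2.56 to 0.85, against −0.08 over all genes. Member probe sets took 5.24% to 5.52% of the signal of sarin arrays and 7.29% to 8.25% of that of controls.

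This median depended on the scaling of the arrays. With quantile normalization it was −0.25, against −0.23 over all genes. There 24 members were lower and 8 higher, and 5138 of 7178 genes were called in either direction. With array medians made equal it was −1.41 against −0.64 over all genes, and scaled to the spike-ins −2.89 against −2.05. Bright genes outside the list were lower too: at a mean level of 13 or more, 164 other genes had a median of −1.34 and 49 members one of −0.83. These 2 sets differ in level. At 13 to 14 the medians were −1.78 for 7 members and −1.40 for 129 other genes. At 14 to 15 they were −0.96 for 27 members and −1.24 for 23 other genes, and at 15 to 17 −0.65 for 15 and −0.40 for 12. The part of array quality in these values was not tested.

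The largest falls were those of RPL36AL, RPL36 and RPL3. RPL36AL had signals of 1370, 711 and 1154 with sarin and 5108, 7171 and 6492 in controls, a log2 difference of −2.56 ± 0.21 (limma adjusted p = 3.59e-09). RPL36, of the large subunit, had 3050, 3308 and 3845 against 17724, 16059 and 16036 (−2.29 ± 0.13, adjusted p = 2.38e-11). The sarin arrays lay far below all controls in both genes. RPL3 had 6923, 6722 and 7053 against 38694, 32194 and 28020 (−2.24 ± 0.18, adjusted p = 3.42e-09).

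RPL18 (−2.22), RPL39L (−2.17), RPS9 (−1.99), RPL11 (−1.91), RPL35A (−1.78), RPS12 (−1.77) and RPL10A (−1.67) followed, all called. RPL39L had signals of 112.9, 286.5 and 459.1 with sarin. The 90th percentile of the unspiked bacterial probe sets on those arrays was 413, 411 and 443. Replicates 1 and 2 lie below that level, so the size of the fall of RPL39L is uncertain. RPL35A is mutated in some families with Diamond-Blackfan anaemia. In RPL36AL, RPL36, RPL3, RPL39L, RPS9, RPL11 and RPL10A the fall passed the threshold in all 19 alternatives. In RPL35A it turned to 0.70 when the mean over its 3 probe sets was taken.

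At the other end RPL37A and RPL27A were higher with sarin. RPL37A, a zinc-binding protein of the large subunit, had 100390, 98177 and 105603 with sarin against 67917, 54324 and 52998 in controls (0.80 ± 0.29, adjusted p = 0.0192). RPL27A had 1987, 1590 and 1977 against 1308, 810 and 986 (0.85 ± 0.22, adjusted p = 0.00189). That RPL27A probe set has a mean log2 level of 10.07, and a brighter one with several symbols (level 15.27) differed by −0.22, untested. Both probe sets that were called turned lower when arrays were scaled to the spike-ins, at −1.24 and −1.16. With that scaling all 54 members were called lower, and the median over all genes was −2.05. RPL37A lost its call when either of 2 control arrays was left out, with adjusted p of up to 0.0618.

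Between these ends, RPL39 (0.40), RPL14 (0.20), RPS18 (0.20), RPS24 (0.01), RPS7 (−0.06), RPL22 (−0.24) and RPS27 (−0.35) were not called. In the fit over all probe sets, a further probe set of RPL14 (−1.39), 1 of RPS7 (−1.57) and 2 of 5 of RPL22 were called lower. RPS27 and its paralogue were both lower on every sarin array: RPS27L had 3236, 3143 and 3785 with sarin against 6673, 6031 and 6141 (−0.89 ± 0.15, adjusted p = 2.71e-05), and RPS27 had 33598, 30090 and 31936 against 42080, 38998 and 41046 (−0.35 ± 0.24, adjusted p = 0.187). Only RPS27L was called, and the difference between the paralogues was not tested. RPS27L thus stood above its controls at 24 h and below them at 48 h.

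**Figure D4:**
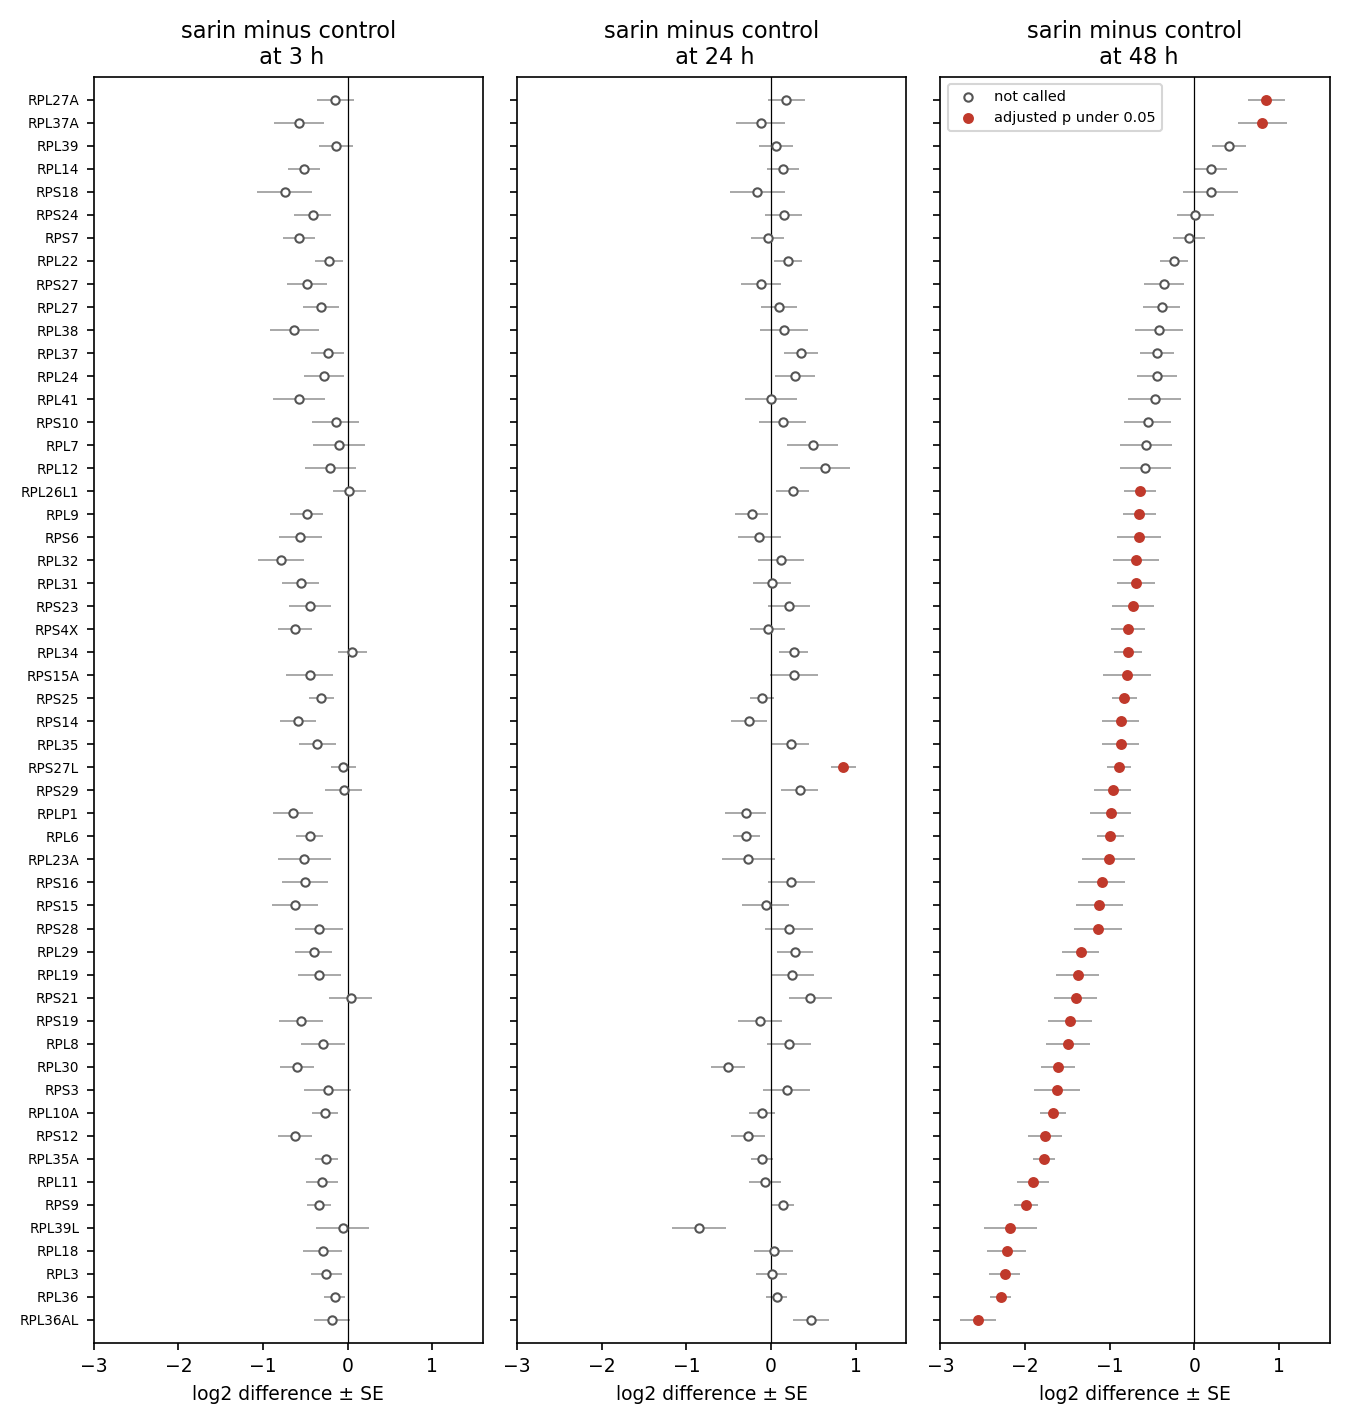
Log2 difference of sarin minus control with its SE for the 54 members at 3, 24 and 48 h, ordered by the value at 48 h; filled points were called in limma at an adjusted p under 0.05. At 3 h 0 members, at 24 h 1 (RPS27L, 0.85) and at 48 h 39 were called.

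The counts by role below stand beside 37 of 54 members (68.5%) called lower, and no list was tested against the other members. By subunit, 16 of 21 small subunit members were called lower at 48 h and 0 higher, with a median of −0.87, and 21 of 33 large subunit members were lower and 2 higher, with a median of −0.78. All 5 measured proteins of the decoding site and mRNA channel were lower (median −1.14), among them RPS3 (−1.62), RPS9 (−1.99) and RPS28 (−1.14). Of 9 exit tunnel members 5 were lower and 0 higher (median −0.69). Of 7 paralogues with a probe set of their own 4 were tested, and all 4 were called lower (median −1.53), RPL26L1 by the least (−0.65 ± 0.19). RPL3L, RPL10L and RPS4Y1 did not pass the level filter and were not tested.

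Of 13 members mutated in Diamond-Blackfan anaemia 8 were lower and 0 higher (median −0.87), with RPS19 at −1.47 ± 0.26. Of 6 members that bind MDM2 or belong to the 5S particle 4 were lower and 0 higher (median −0.88). RPL11 and RPS27L were among those that fell, whereas RPS7 and RPS27 were not called on their brightest probe sets. The other RPS7 probe set, also bright, was called lower in the fit over all probe sets (−1.57). Of the 2 stalk members RPLP1 fell (−0.99 ± 0.24) and RPL12 was not called (−0.58 ± 0.30, adjusted p = 0.0887). RPS4X (−0.78 ± 0.21) and RPS6 (−0.65 ± 0.26, adjusted p = 0.0297) also fell. RPS6 was not called when 1 of 4 arrays was left out, with adjusted p of up to 0.103.

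Related lists were lower at 48 h as well, when 37.8% of all genes were called lower and 32.9% higher. Genes outside the members had a median of −0.78 at a mean log2 level of 11 to 12, and of −1.21 at 12 to 13. The lists were not matched to other genes by level. Of 45 mitochondrial ribosomal protein genes 37 were called lower and 4 higher (median −1.25), of 30 initiation and elongation factors 23 and 2 (median −1.01), and of 44 biogenesis genes 28 and 4 (median −0.92). Of 16 translation factors with TOP messages 10 were lower and 0 higher (median −0.73). FAU, whose product is cut to give the small subunit protein eS30, lies outside the symbol rule and fell by 2.14. Among the members, the 32 tested genes with a pyrimidine tract exactly at an annotated start had a median of −0.76 and the 15 without one a median of −0.96.

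The sum over 14 markers of substrate-adherent cells was 25236 to 27989 with sarin at 48 h and 64396 to 85443 in controls, and that over 12 noradrenergic markers 52832 to 62194 against 98036 to 102547. Both sums were lower in the same arrays as the ribosomal protein genes. The first sum is carried by its bright genes: of 11 substrate-adherent markers tested 5 were called lower and 4 higher, with a median of 0.01. For 3 blood or immune cell markers the sum was 2559 to 3009 against 867 to 1153, and for 3 astrocyte markers 466 to 639 against 298 to 449. The 90th percentile of the unspiked bacterial probe sets was also higher on these sarin arrays, at 411 to 443 against 103 to 161. The part of this background in the blood and astrocyte sums was not tested. At 24 h the substrate-adherent sum was 42075 to 43264 with sarin and 61378 to 63792 in controls, and the noradrenergic sum 119938 to 122458 against 103478 to 117746, both without overlap. These sums hide single genes: of 11 noradrenergic markers tested at 24 h 2 were called higher and 2 lower, with a median of 0.12. RET (−1.26) and CHGB (−1.02) were lower, and CHGA (0.77) and GATA3 (0.72) higher. Of 11 substrate-adherent markers tested at 24 h 0 were called higher and 3 lower. The part of the cell type markers in the results at 24 and 48 h was not tested.

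Probe sets of the same gene did not read alike at 48 h. Over all 96 member probe sets 53 were called lower (55.2%, against 22.4% of 19065) and 18 higher (18.8%, against 40.7%). Of the 18 higher ones 15 had a mean log2 level under 11, and of 54 probe sets at 14 or more 35 were lower and 1 was higher. In 8 of 23 genes with several probe sets, at least 1 was called in each direction, and the higher ones all had a level under 11.

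Dim probe sets of RPL35A, RPS6 and RPL18 read higher with sarin while bright ones of the same genes fell. The bright RPL35A probe set fell by 1.78, whereas a dim one had signals of 845, 389 and 787 with sarin and 54.8, 33.3 and 47.2 in controls. RPS6 was read by 3 bright probe sets that differed by −1.20 ± 0.25, −0.65 ± 0.27 and 0.09 ± 0.25, and by a dim one with signals of 610, 696 and 1076 with sarin and 106, 12.5 and 73.7 in controls. RPL18 fell by 2.22 on its bright probe set and differed by 1.72 on a dim one. On sarin arrays the 90th percentile of the unspiked bacterial probe sets was 411 to 443, against 103 to 161 on controls, so the control readings of the dim RPL35A and RPS6 probe sets lie below that level, and no fold is given for them.

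Gaps were also seen between bright probe sets. Of 14 genes with at least 2 probe sets at a level of 11 or more, 7 differed by over 1 log2 unit between them. RPS7 had −1.57 and −0.06, RPL24 −1.86 and −0.44, RPL14 −1.39 and 0.20, and RPS9 −1.99 and −0.02. RPL38 had −0.42, 0.95 and 1.23. In RPL22, 5 probe sets had −1.36 to −0.22. Ribosomal protein genes have many processed pseudogenes, and 36 member probe sets carry the suffix _s_at and 32 the suffix _x_at, which mark probes shared with other transcripts.

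**Figure D5:**
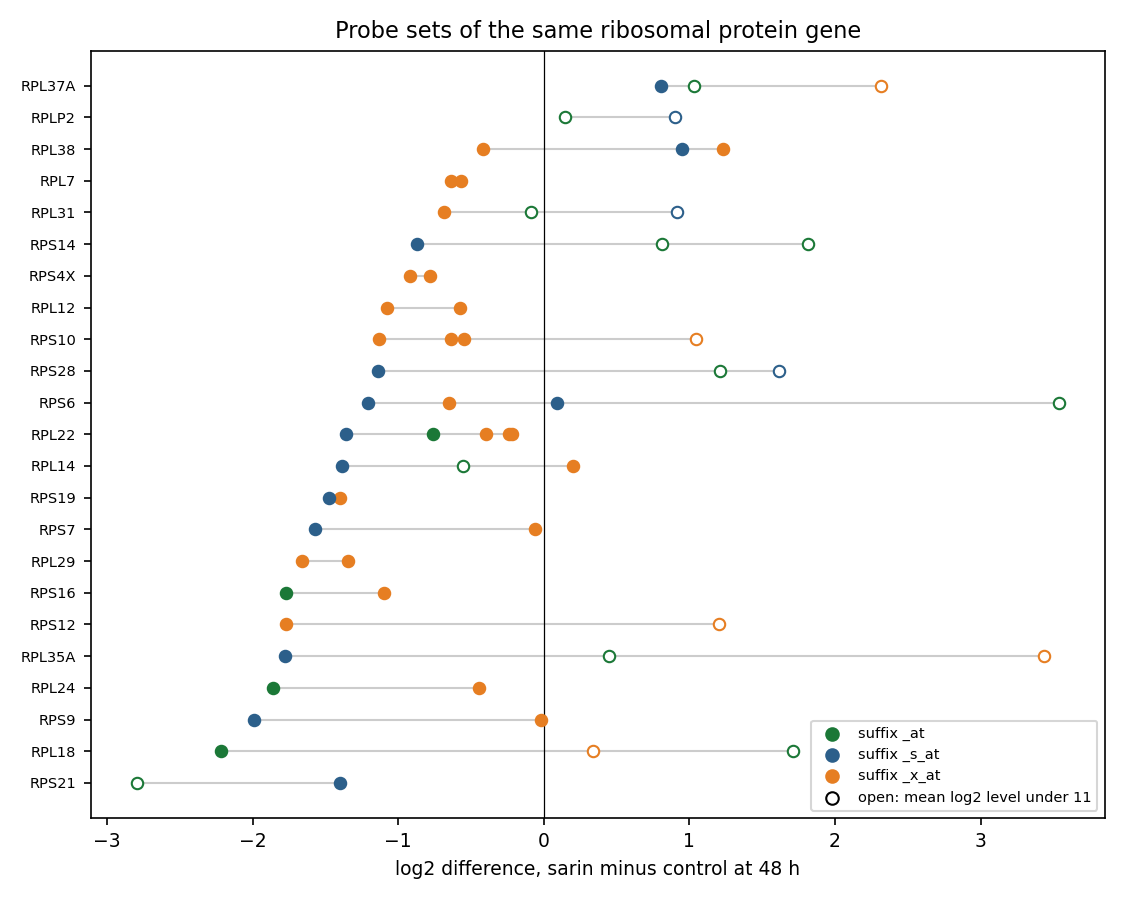
Log2 difference of sarin minus control at 48 h for each probe set of the 23 members with several, coloured by the suffix of the probe set, with open circles for a mean log2 level under 11. Among probe sets at a level of 11 or more, the widest spans are those of RPS9 (−1.99 to −0.02) and RPL38 (−0.42 to 1.23); open circles include probe sets whose control signal is near background.

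Between times in untreated cells, calls among the members were no more frequent than among all genes. In control cells at 24 h 0 members were higher than at 3 h (against 3.57% of all genes) and 1 was lower (1.85%, against 2.12%). This was RPS9, at the mRNA entry channel, with signals of 13428, 12674 and 13394 at 24 h against 20323, 16257 and 24097 at 3 h (−0.60 ± 0.14, limma adjusted p = 0.0168). Without control replicate 2 at 24 h the adjusted p was 0.0676. The members' median was −0.30, with 0.05 without control replicate 3 and −0.52 without control replicate 2 at 3 h. RPL10A (−0.43 ± 0.15) and RPS27L (−0.42 ± 0.15) had adjusted p of 0.0957.

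In control cells at 48 h 0 members were called higher than at 24 h and 0 lower, where 0.167% and 0.265% of all genes were called. At an unadjusted p under 0.05 there were 9 of 54 members and 767 of 7178 genes. Arrays did not overlap for 20 members higher at 48 h (37%, against 9.38% of all genes) and 0 lower (against 13.1%). The members' median was 0.24 against −0.04 over all genes, with 51 of 54 above 0, and 0.14 without control replicate 1 at 48 h. With quantile normalization it was 0.12, against −0.02 over all genes. At a mean log2 level of 13 or more, 49 members had a median of 0.25 and 164 other genes one of 0.07, and these sets were not matched by level. RPL35A led, with 19760, 19111 and 17473 at 48 h against 12055, 12962 and 14156 at 24 h (0.53 ± 0.13, adjusted p = 0.0985). RPL36 (0.44 ± 0.13), RPS9 (0.46 ± 0.14) and RPL34 (0.53 ± 0.17) followed without a call.

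Members varied together over the arrays to differing degrees. Over the 15 arrays other than sarin at 48 h, the median correlation between pairs of members was 0.64, and 0.41 when control replicate 3 at 3 h was also left out. These points share the array and its scaling. RPL26L1 (−0.21), RPL34 (−0.03), RPL39L (−0.02), RPS27L (0.04) and RPL36AL (0.12) had the lowest median correlation with the other members, followed by RPL27A (0.14) and RPS25 (0.20), and RPS6 (0.84) had the highest. RPL26L1, RPL39L, RPS27L, RPL36AL and RPL27A are the 5 tested members with a mean log2 level under 13. The same measure was not computed for other genes.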

How the data were processed

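RNA from 18 samples (6 groups of 3) was hybridised to Affymetrix arrays with 22283 probe sets. The authors deposited linear signal intensity per probe set; MAS5 is the tool named in the submitters' processing notes, with version and settings not given in the sources used here. Gene symbols came from the platform annotation, and 19065 probe sets had 1 symbol. All 96 member probe sets matched RefSeq by Entrez identifier, and 0 symbols changed.

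Each gene was represented by its brightest probe set, by mean log2(signal + 16). The 7178 genes in the upper 60% by that level (signal of 345 or more) entered the tests. Group means of 18 arrays were fitted with limma 3.58.1 (lmFit, eBayes with trend, R 4.3.3), two-sided, with Benjamini-Hochberg adjustment over all genes tested; a call is an adjusted p under 0.05. Fold changes on this scale understate those of dim genes, and ± in log2 units is the SE. A second fit covered the 19065 probe sets without a filter. The fit was tested on simulated data. The number of arrays limits the precision.

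Members, lists and tests were chosen with earlier results of these data known. Named members are up to 6 of the smallest p in each direction per comparison, 20 listed genes, the 5 widest over the 3 h controls, the largest gaps between probe sets and those below the filter. Alternatives were other pseudocounts, filters, scalings, probe set summaries, limma settings, control sets, a block for replicate number and omission of each array.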

Additional observations from a re-analysis of the deposited data

Results flagged for a closer look

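The sarin effect on RPS27L differed between times by a test of the difference itself: it was larger at 24 h than at 3 h by 0.90 ± 0.21 log2 units (limma adjusted p = 0.0444), with the sarin arrays above all controls at 24 h and overlapping them at 3 h. The call held in 9 of 25 alternatives, and the adjusted p over them ran from 0.00346 to close to 1, the highest with spike-in scaling.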

How the results depend on the processing

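Of the 6 counts of members, each under its alternatives, 85 stayed within 1.5 times their value, while 19 were lower and 18 higher. Of the 6 medians of members, 113 stayed within 1 SD of arrays, while 9 moved. That SD was 0.44 for sarin at 3 h and 0.45 for controls at 24 against 3 h, wider than the medians themselves (−0.34 and −0.30). For these 2 comparisons, staying within 1 SD therefore does not show that the median is stable. At 3 h, 4 members were called against the controls of the other times, beside 1058 of 7178 genes. At 24 h, 8 members were called with array medians made equal and with array weights, beside 1219 and 2027 of 7178 genes. In a fit of the groups compared and against other controls 7 were called, beside 1574 and 894 genes. Quantile normalization gave 3 beside 311 genes. Means over probe sets and leaving out the sarin arrays at 48 h gave 2, beside 570 and 1004 genes. Spike-in scaling gave 0 beside 27 genes. The median was 0.40 with equal array medians and −0.18 against other controls. At 48 h the median was −0.25 with quantile normalization, −1.41 with equal array medians, −2.89 with spike-in scaling and −0.71 against other controls, and all 37 lower calls were shared in each of these except quantile normalization, with 24; means over probe sets shared 30 and leaving out control replicate 1 shared 33. RPL27A (−1.16) and RPL37A (−1.24) turned lower with spike-in scaling, with which all 54 members were called lower. RPL35A (0.70) and RPS6 (0.44) reversed with means over probe sets. For the difference between 24 and 3 h, 0 members were called with quantile normalization, spike-in scaling or no level filter. No trend, a fit of the groups compared and the block also gave 0. With array weights 2 were called, beside 396 of 7178 genes. Leaving out 1 array gave 0 to 1, and quantile normalization a median of 0.02. For controls at 24 against 3 h, 3 members were called with quantile normalization (2 higher, 1 lower), beside 161 of 7178 genes. Equal array medians gave 23 beside 1190 genes, and spike-in scaling 48 beside 2596. Means over probe sets gave 2 beside 395, array weights 4 beside 929, and a fit of the groups compared 0 beside 56. Leaving out 1 array gave 0 to 8. Without replicate 3 at 3 h it was 3 beside 439 genes, and without replicate 2 it was 8 beside 537. Spike-in scaling gave a median of −1.07. For controls at 48 against 24 h, 2 members were called with equal array medians, with a median of 0.40, beside 44 of 7178 genes. Array weights gave 6 beside 307 genes. The causes were not tested. Equal array medians moved the median of all genes to 0.22 at 24 h and −0.64 at 48 h, and spike-in scaling to −2.05 at 48 h.

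Same-numbered arrays did not deviate together in every pair (correlations of −0.18 to 0.24). Among controls, replicate 1 had 0.23 for 24 against 3 h and 0.24 for 48 against 24 h, and replicate 3 had −0.14 and −0.07. These correlations do not decide whether the numbers pair the samples. With the replicate block 0, 1 and 39 members were called at 3, 24 and 48 h, 0 for the difference, 1 for controls at 24 h and 0 for controls at 48 h. Signals near the unspiked bacterial probe sets limit what dim probe sets show at 48 h.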

Other observations

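Ribosomal protein genes whose probe sets carry several gene symbols lie outside the members. Their 57 probe sets stand for 21 ribosomal protein genes, 16 of which are not members. Their median deviation from the mean of the 9 controls was 0.75 log2 units on control replicate 3 at 3 h, with 50 of 57 above 0, against −0.09 and −0.34 on replicates 1 and 2. Sarin minus control had a median of −0.37 at 3 h, 0.03 at 24 h and −0.75 at 48 h (range −2.17 to 2.29, 14 of 57 above 0), untested.

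A pattern noticed in the data concerns probe sets of 1 gene at 48 h. In 7 of 9 members with both kinds at a level of 11 or more, the _x_at probe sets stood above the others of the same gene, by up to 1.97 log2 units in RPS9, and in RPL38 and RPS6 they stood below. Over the tested members the 11 read by _at probe sets had a median of −1.38 and the 16 read by _x_at probe sets one of −0.62. Of other genes at a level of 13 or more, 51 read by _at had a median of −1.46 and 43 read by _x_at one of −0.97.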
